A study of Canis lupus familiaris with 18 samples.

Results

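This account concerns the difference between the bPAC line and the parental line of MDCKI cells when both received the low dose of light. It rests on all libraries whose source label names the low dose, 4 of the bPAC line and 3 of the parental line, so 7 of the 18 libraries of the series. MDCKI is a dog kidney epithelial cell line, and the labels give the cell type of the other line as MDCKI + bPAC. The 4 bPAC low light libraries and the 3 parental low light libraries came from cells lit for 2 h, beginning 16 h after plating in 6-well plates. The 3 bPAC dark and 3 parental dark libraries, labelled as controls, had no light and serve to show the line difference without it. The 3 bPAC and 2 parental high light libraries received the other dose for the same time. All groups were grown in DMEM with 0.5% serum and without phenol red, and the labels do not say whether the bPAC line is a clone or a pool, which promoter drives bPAC, or how strong the doses were.

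bPAC is a bacterial photoactivated adenylyl cyclase, an enzyme that converts ATP to cyclic AMP when it absorbs blue light. Cyclic AMP binds the regulatory subunits of protein kinase A and frees its catalytic subunits, which phosphorylate many proteins, among them transcription factors of the CREB family. In kidney epithelium the same second messenger acts downstream of vasopressin and takes part in water transport, in cell shape and in the formation of cysts. Comparing the lines at equal light holds the light the same, and differences which exist between the lines in the dark are read beside it. An effect of the cyclase cannot be told apart from other differences between these lines, including any in their response to light.

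The deposited tables name genes by Ensembl dog IDs with no symbol. A RefSeq gene table of the dog assembly UU_Cfam_GSD_1.0 held 0 of these 32220 IDs. The genes are therefore given by ID, without a name or a role, and neither epithelial markers nor lists of cyclic AMP target genes could be examined. The tables count reads over dog genes, so the level of the bPAC transgene was not analysed here and the line labels have no check from it.

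Between 3380458 and 6836729 reads per library were assigned to genes in the 7 low light libraries, which detected 11035 to 11981 genes. Levels below are CPM, read counts of a gene scaled to a common library size with TMM factors. Of the 32220 IDs, 8530 passed the filter on low counts and were tested. The 10 most abundant genes took 16.0% to 18.5% of gene reads in the 4 bPAC low light libraries and 13.3% to 13.8% in the 3 parental low light libraries. These ranges did not overlap, with means of 17.3 ± 1.29% (SD, n = 4) and 13.6 ± 0.247% (SD, n = 3), and the exact two-sided permutation p of 0.0286 is the smallest that 4 against 3 libraries allow (0.114 after Benjamini-Hochberg adjustment over 4 library measures). In the dark the 10 most abundant genes took 14.2% to 15.2% in bPAC and 13.3% to 13.9% in parental libraries, also without overlap. In high light they took 17.2% to 21.2% in bPAC and 13.5% to 14.3% in parental libraries. The shares of reads outside genes (27.5% to 29.5% and 28.3% to 29.6%) and of reads aligned to several places (37.5% to 40.7% and 39.7% to 42.0%) overlapped between bPAC and parental low light libraries. The labels do not tell whether replicates were grown as separate cultures. The p-values therefore reflect library-to-library spread only, and that spread may be technical. In bulk RNA such as this, fewer cells of a kind and less RNA per cell cannot be told apart.

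The 4 bPAC low light libraries were not alike. On the first principal component of the 7 low light libraries, which held 42.2% of the variance in log2 CPM, bPAC replicates 1 and 4 scored 37.1 and 55.3, whereas bPAC replicates 2 and 3 scored -7.86 and -3.18. The 3 parental low light libraries scored -16.1, -32.6 and -32.7. On the second component, with 22.1% of the variance, bPAC replicates 2 and 3 lay lowest at -40.1 and -23.4, and bPAC replicate 1 lay at -6.44. The parental libraries lay between 9.44 and 27.5, with bPAC replicate 4 inside that range at 19.1. Across genes, the median SD of log2 CPM was 0.357 among the bPAC low light libraries, 0.277 among the parental low light libraries, 0.280 among the bPAC dark libraries and 0.299 among the parental dark libraries. An axis fitted to the residuals of all 18 libraries around their group means held 29.8% of that residual variance, and bPAC low light replicates 1 to 4 scored 24.7, -34.1, -28.9 and 38.3 on it, against 15.6, -7.36 and -8.25 for the parental low light libraries. Across the 8530 genes, its loadings correlated at a Pearson r of 0.226 with the low light line difference, -0.244 with the dark one and 0.510 with the difference between them; these values share libraries, and the part of this axis in the results was not tested. Counts of called genes are therefore also given without bPAC replicates 1 and 4 and without bPAC replicates 2 and 3.

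**Figure D1:**
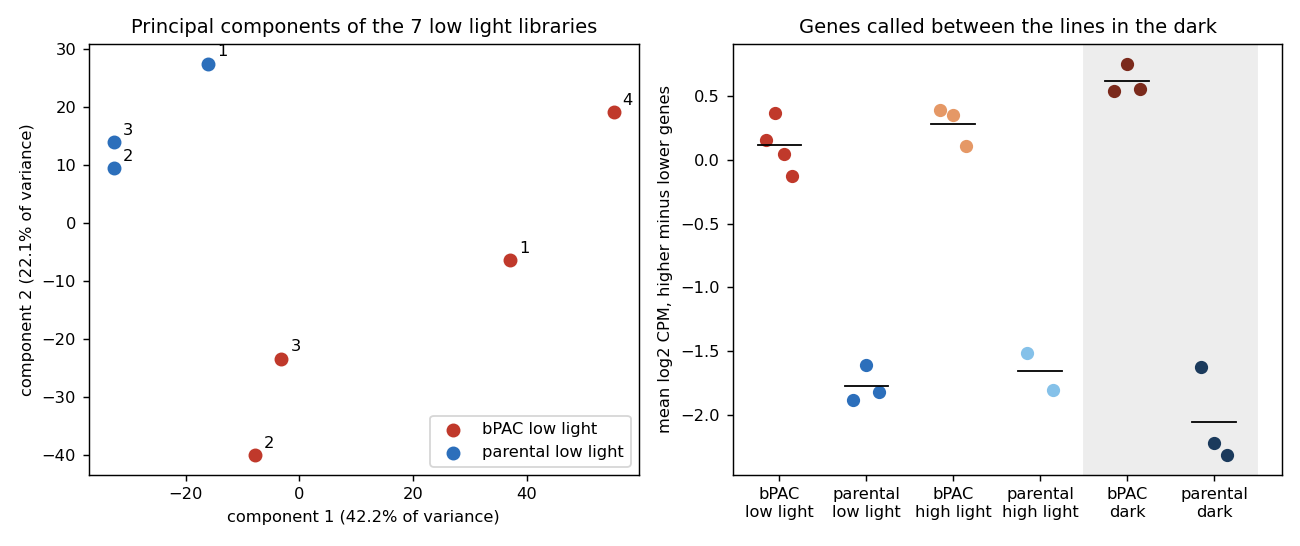
Left, scores of the 7 low light libraries on their first 2 principal components, numbered by replicate; bPAC replicates 1 and 4 lie to the right of bPAC replicates 2 and 3. Right, mean log2 CPM of the 308 genes higher in bPAC than in parental cells in the dark minus that of the 249 genes lower there, per library, with group means as lines; the shaded dark libraries chose these genes, and the low light libraries lie between -0.124 and 0.371 for bPAC cells and between -1.89 and -1.61 for parental cells.

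In low light, 597 genes differed between the lines, 356 of them higher and 241 lower in bPAC cells (edgeR's quasi-likelihood test with Benjamini-Hochberg adjustment at 0.05). That is 7% of the 8530 tested genes, 4.17% higher and 2.83% lower, and 1782 genes had an unadjusted p under 0.05. The higher genes had a median fold change of 2.38, with the middle of the list spanning 1.89 to 3.82 (lower to upper quartile), and the lower genes a median of 1.93, spanning 1.67 to 2.56. At least 2-fold differences were found for 245 higher and 108 lower genes, and at least 4-fold differences for 86 and 23. The smallest called differences were 1.35-fold for higher and 1.36-fold for lower genes. Together the 356 higher genes took on average 12.9% of gene reads in bPAC low light libraries and 5.79% in parental ones, and the 241 lower genes took 2.28% and 5.01%.

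In 351 of the 356 higher genes every bPAC low light library lay above every parental one, and in 236 of the 241 lower genes every bPAC library lay below. The same separation held, called or not, for 10.1% of tested genes in the upward and 9.36% in the downward direction. The called genes were selected in these same 7 libraries, so their separation describes them and adds no support. Calls became more frequent with level. When the tested genes were split into 4 equal bins by their mean over all libraries, the lowest bin, up to 4.90 CPM, held 61 higher and 20 lower genes, or 3.8% called, at a median SE of 0.506 on the log2 scale. The highest bin, from 67.9 CPM, held 118 higher and 100 lower genes, or 10.2% called, at a median SE of 0.194. The called genes of the lowest bin had a median absolute log2 fold change of 2.32 and those of the highest bin 0.86.

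The number of calls depended on which libraries were used. It was 310 without bPAC low light replicates 1 and 4, of which 71% were higher in bPAC cells, and 1069 without bPAC low light replicates 2 and 3, of which 46.3% were higher. Of the 597 genes, 595 were tested without replicates 1 and 4 and 594 without replicates 2 and 3, all with the same direction as with 4 libraries, and 280 and 470 of them were called. The 597 genes were selected with libraries that these fits reuse, so the kept direction adds no support. The number of calls was between 449 and 569 without any 1 of the bPAC low light libraries. It was 353, 298 and 339 without parental low light replicate 1, 2 and 3, and 356 when only the 7 low light libraries were fitted. A core of 213 genes, 157 higher and 56 lower, was called with all libraries and without each of the 7 in turn, and 228 genes, 170 higher and 58 lower, were called with all 4 bPAC libraries and with either pair of them.

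**Figure D2:**
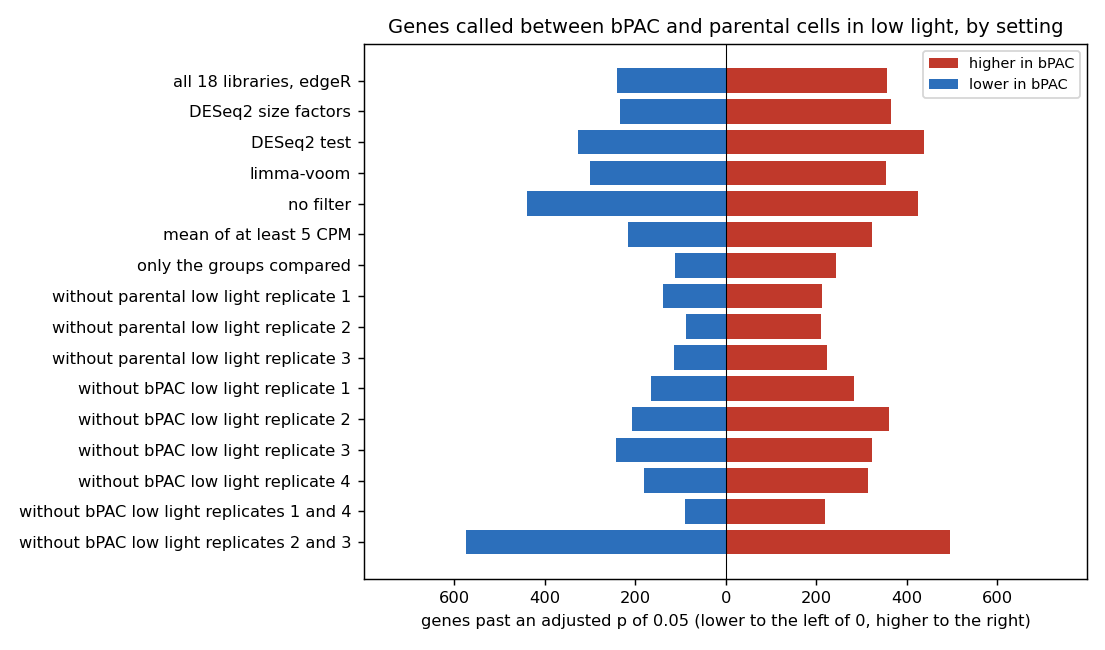
Number of genes past an adjusted p of 0.05 between bPAC and parental cells in low light, higher in bPAC to the right of 0 and lower to the left, with all 18 libraries (597) and under each alternative. Without bPAC replicates 2 and 3 the bars reach 495 higher and 574 lower genes, and without replicates 1 and 4 they reach 220 higher and 90 lower genes.

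The 2 highest folds among genes with no overlap and at least 5 CPM in the higher group belonged to ENSCAFG00000017018 and ENSCAFG00000008253. ENSCAFG00000017018 had 30.1, 53.9, 76.1 and 77.8 CPM in the bPAC low light libraries and 0.883, 1.11 and 2.38 CPM in the parental low light libraries. The lowest bPAC library was thus above the highest parental library by more than the range of the parental libraries. The difference was 39.5-fold (log2 fold change 5.30, SE 0.43, edgeR adjusted p = 1.79e-07). The gene passed the filter on low counts only through bPAC libraries, where it is high, so this p-value adds no support. In the dark the gene had 24.7, 20.7 and 42.2 CPM in bPAC cells and 1.31, 0.537 and 0.678 CPM in parental cells, and its line difference in low light exceeded that in the dark by 0.39 on the log2 scale, with a 95% interval of -1.03 to 1.82.

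ENSCAFG00000008253 had 6.68, 5.92, 14.9 and 18.7 CPM in the bPAC low light libraries, against 0, 0.553 and 0.433 CPM in the parental low light libraries. The parental libraries held 5 reads of it in all, so their level is set by very few counts, and the bPAC libraries 226. The fitted difference was 29.5-fold (log2 fold change 4.88, SE 0.67, edgeR adjusted p = 0.000143). This gene too passed the filter on low counts only through bPAC libraries, so its calls add no support. In the dark it stood at 6.60, 9.50 and 18.6 CPM in bPAC cells and at 1.31, 0.268 and 0.452 CPM in parental cells (edgeR adjusted p = 0.000574), so the bPAC libraries covered the same range with and without light.

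Among the lower genes, ENSCAFG00000012619 had 0.477, 0.634, 0.585 and 0 CPM in the bPAC low light libraries, a total of 7 reads, and 3.82, 12.4 and 4.54 CPM in the parental low light libraries, a total of 101 reads. It was lower in all 4 bPAC libraries than in any parental one (log2 fold change -4.12, SE 0.89, edgeR adjusted p = 0.00981). The gene passed the filter on low counts only through parental libraries, where it is high, so its calls add no support. The call was lost without parental low light replicate 2 (adjusted p = 0.0715), without bPAC low light replicates 1 and 4 (adjusted p = 0.123) and with limma-voom (adjusted p = 0.0944). In the dark it was also lower in bPAC cells, at 1.71 ± 0.94 CPM against 21.4 ± 16.4 CPM in parental cells (SD, n = 3 each; edgeR adjusted p = 0.00937), and that call too was lost with limma-voom (adjusted p = 0.0743).

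ENSCAFG00000001254 had 3.58, 8.24, 0.878 and 0.943 CPM in the bPAC low light libraries and 18.2, 27.6 and 72.9 CPM in the parental low light libraries. The groups did not overlap, although parental replicate 3 was well above the other parental libraries (log2 fold change -3.53, SE 0.66, edgeR adjusted p = 0.00445). The lines overlapped in the dark, at 32.8, 41.1 and 65.6 CPM in bPAC cells and 31.4, 58.7 and 35.3 CPM in parental cells, with a log2 difference of 0.16 and an SE of 0.61. Its line difference in low light minus that in the dark was -3.69 (95% interval -5.62 to -1.76 before adjustment), but with an edgeR adjusted p of 0.535 it did not pass over all tested genes. In high light it was again lower in bPAC cells, at 2.58 ± 1.05 CPM (SD, n = 3) against 91.0 ± 55.4 CPM (SD, n = 2) in parental cells (edgeR adjusted p = 0.00118). The low light call was lost when only the 7 low light libraries were fitted (adjusted p = 0.0575) and without bPAC replicates 1 and 4 (adjusted p = 0.0622).

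**Figure D3:**
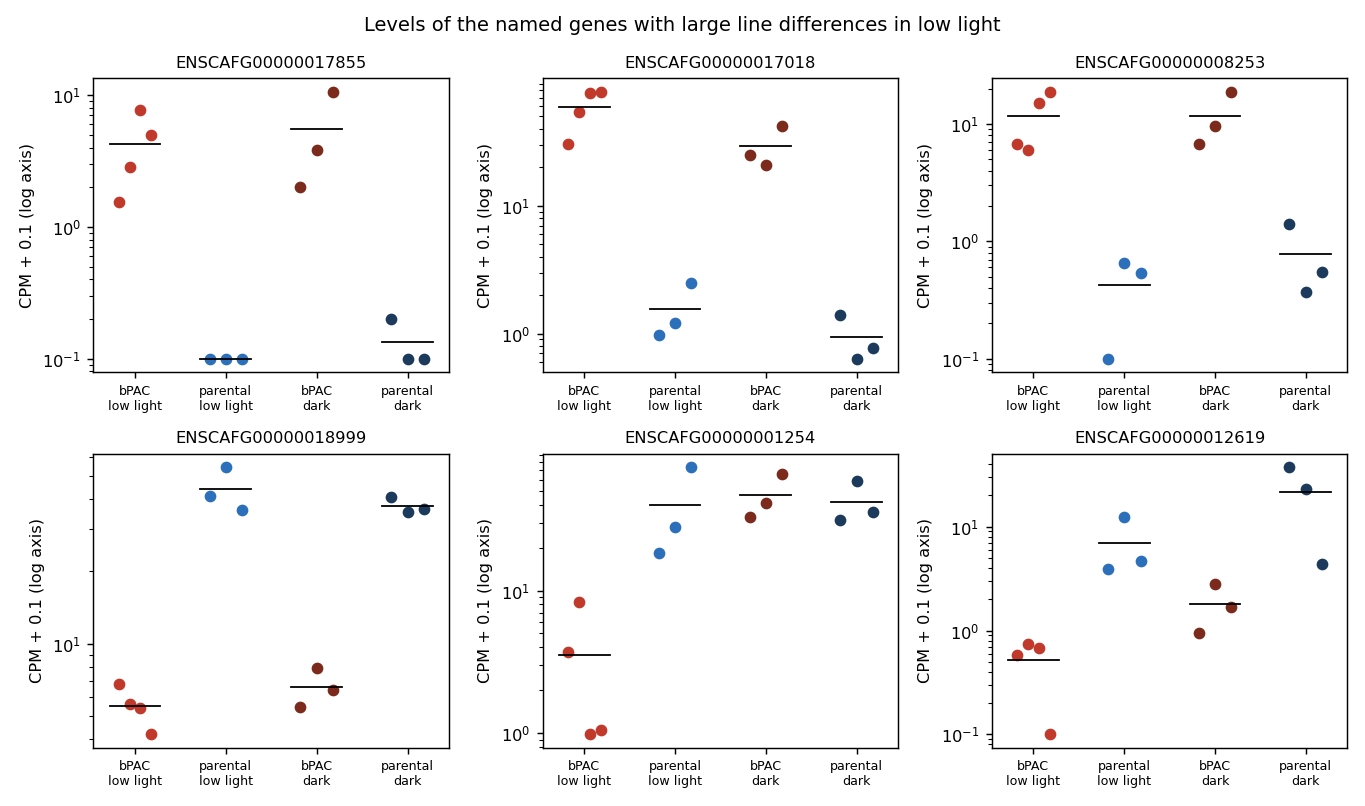
CPM plus 0.1, on a log axis, of 6 genes with large line differences in low light, per library (points) with group means (lines), for bPAC and parental cells in low light and in the dark. In 5 of the genes the bPAC libraries lie on the same side of the parental ones in both conditions, and in ENSCAFG00000001254 the lines separate in low light and overlap in the dark.

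Several differences were close to presence against absence. Of all 32220 IDs, 51 had reads in each of the 4 bPAC low light libraries and none in the 3 parental ones, and 16 showed the reverse, with 19273324 gene reads in the bPAC and 12979158 in the parental libraries. Only 5 of the 51 held at least 20 reads, with a median of 28 and a maximum of 76, and none of the 16 did. All 5 had reads in the dark libraries of both lines, so none was without reads in the parental line as a whole. Of the 5, 2 passed the filter on low counts. Among the low light libraries they could do so only through those of the bPAC line, and their calls restate how they were chosen.

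The line difference in the dark gave 557 genes, 308 higher and 249 lower in bPAC cells, which is 6.53% of tested genes (3.61% higher and 2.92% lower). Leaving out parental dark replicate 3 gave 224 genes, and leaving out replicate 2 of either line in the dark gave 238. The low light and dark comparisons share no library. The genes called in both with the same sign numbered 273, of which 195 were higher and 78 lower in bPAC cells. They made up 54.8% of the 356 genes higher in low light and 63.3% of the 308 genes higher in the dark, and 32.4% of the 241 genes lower in low light and 31.3% of the 249 genes lower in the dark. Leaving out replicate 2 of either line in the dark gave 167 shared genes, leaving out parental dark replicate 3 gave 174, and leaving out parental low light replicate 3 gave 176. Of the 213 genes called in every fit with a low light library left out, 73.7% were also called in the dark, counted in either direction. Passing every such fit favours genes with strong calls, so nothing is read from this share beside those of all low light calls.

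Across the 8530 genes the line differences in low light and in the dark correlated at a Pearson r of 0.575 (Spearman's rho 0.447). Genes are not independent replicates, and the values share the scaling, the filter and the lines themselves. With high light the low light differences correlated at 0.638, and the dark differences correlated with the high light ones at 0.415.

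The genes chosen in the dark libraries were then followed in the low light libraries. Of the 308 genes higher in bPAC cells in the dark, 307 were above 0 in low light, with a median log2 difference of 1.13 (1.35 in the dark libraries that chose them), and in 241 (78.2%) every bPAC low light library lay above every parental one, beside 10.1% of all tested genes. Of the 249 lower genes, 239 were below 0 in low light, with a median of -0.55 (-1.04 in the dark), and in 145 (58.2%) every bPAC library lay below every parental one, beside 9.36% of all tested genes. Over all tested genes the median was -0.03 in low light. As a level, the 308 genes averaged between 5.20 and 5.42 log2 CPM in the 4 bPAC low light libraries and between 4.05 and 4.16 in the 3 parental low light libraries. The 249 genes averaged 5.05 to 5.33 log2 CPM in bPAC and 5.77 to 5.95 in parental low light libraries. The difference between the averages of both lists was 0.159, 0.371, 0.0485 and -0.124 in bPAC low light replicates 1 to 4, against -1.89, -1.61 and -1.82 in the parental ones. The bPAC and parental libraries did not overlap in this value, and bPAC replicates 1 and 4, which stood apart on the first principal component, lay on either side of replicate 3.

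Conversely, 323 genes were called in low light and not in the dark. Most of them leaned the same way in the dark. Of the 160 higher ones, 148 were above 0 in the dark, 78 of them with an unadjusted p under 0.05 (10.1% of all tested genes were above 0 with such a p), and the median log2 difference was 1.05 in low light and 0.52 in the dark. Of the 163 lower ones, 154 were below 0 in the dark, 72 with an unadjusted p under 0.05 (11.5% of all tested genes), with medians of -0.90 and -0.49. These genes were selected for passing in low light and missing in the dark, so their larger low light medians are a description and no support for a larger difference. The test of the difference between both line differences had an unadjusted p under 0.05 for 31 of the 160 and 32 of the 163, beside 5.94% of all tested genes, and passed the adjusted threshold for 1 of them. The same selection favours low p-values here and the direction of a larger difference in low light, so nothing is read from these counts. Of the 283 genes called in the dark and not in low light, 113 were higher and 170 lower in bPAC cells.

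**Figure D4:**
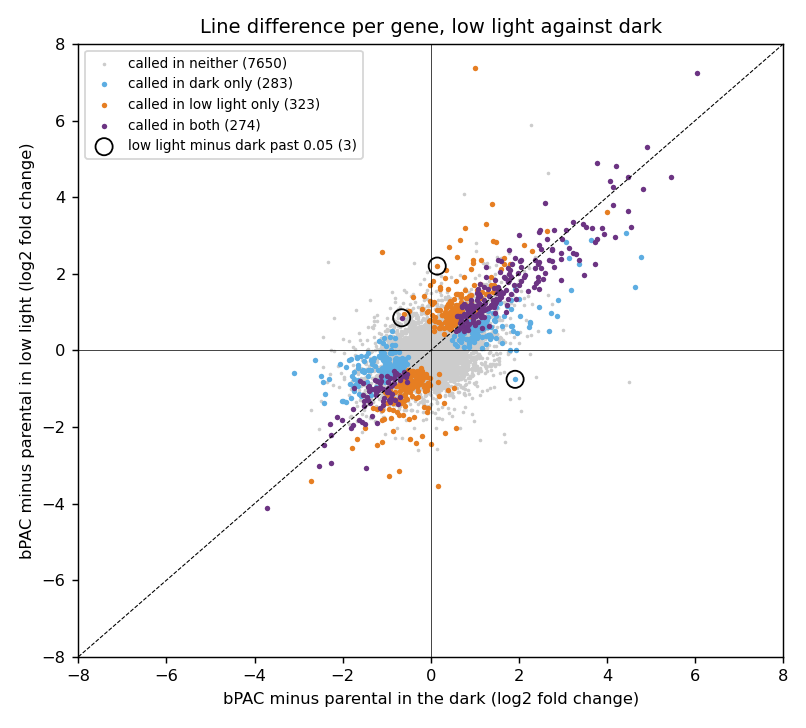
Log2 difference between bPAC and parental cells in low light (vertical) against that in the dark (horizontal) for 8530 genes, coloured by where the gene was called, with the line of equal difference dashed. The 273 genes called in both with the same sign lie along that line, 323 were called in low light only and 283 in the dark only, and circles mark the 3 genes whose line differences differed.

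Over all 8530 genes, the test of the low light line difference minus the dark one called 3 genes, 0.0352% of those tested, with 507 at an unadjusted p under 0.05. DESeq2 called 13 and limma-voom 3. The precision of this test limits what it can show. Among the 597 genes called in low light, the median SE of the difference between line differences was 0.36 on the log2 scale, the same as its median size of 0.36. The 95% interval lay within 2-fold either way for 226 of the 597 genes, and it included 0 but reached beyond 2-fold for 299. It excluded 0, before any adjustment, for the other 72 genes, with a larger line difference in low light for 67 and a smaller or reversed one for 5; choosing genes by their low light call favours the larger side. For those 226 genes a change of the line difference by more than 2-fold lies outside the interval, and for those 299 these libraries do not resolve it.

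ENSCAFG00000016984 was higher in bPAC cells in low light and not in the dark. It had 578, 364, 367 and 522 CPM in the bPAC low light libraries and 96.8, 81.4 and 120 CPM in the parental low light libraries. The dark libraries overlapped between the lines, with 86.0, 78.4 and 77.9 CPM in bPAC cells and 62.1, 64.7 and 92.7 CPM in parental cells. The 4 bPAC low light libraries were therefore above every other library of the 4 groups. The low light line difference was 4.60-fold (edgeR adjusted p = 4.62e-06), and it exceeded the dark one by 2.06 on the log2 scale (SE 0.31, edgeR adjusted p = 0.0113). In high light the gene stood at 215 ± 50.4 CPM in bPAC cells (SD, n = 3) and 143 ± 21.3 CPM in parental cells (SD, n = 2), a line difference that did not pass (edgeR adjusted p = 0.137).

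ENSCAFG00000018583 had its lines in opposite order in the dark and in low light, and was the 1 gene called in both comparisons with opposite signs. That count was 0 without any 1 of the bPAC dark libraries, without parental dark replicate 2 or 3 and without parental low light replicate 3, and it was 2 without bPAC low light replicate 2 or parental dark replicate 1. It had 1536, 1190, 1130 and 1186 CPM in the bPAC low light libraries, against 772, 620 and 705 CPM in the parental low light libraries. In the dark it had 649, 623 and 533 CPM in bPAC cells, all below the 790, 957 and 1107 CPM of parental cells. The log2 line difference was 0.85 in low light (SE 0.17, edgeR adjusted p = 0.00396) and -0.66 in the dark (SE 0.18, edgeR adjusted p = 0.0320), and the difference between them was 1.51 (SE 0.25, edgeR adjusted p = 0.0182). In high light it was again higher in bPAC cells, with a log2 difference of 1.03 (SE 0.21, edgeR adjusted p = 0.00307).

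ENSCAFG00000006638, the remaining gene past the threshold, was chosen after its values were seen, because it was not called in low light itself. It had 13.4, 19.4, 14.3 and 10.1 CPM in the bPAC low light libraries, all below the 23.8, 25.4 and 22.9 CPM of the parental ones (log2 difference -0.76, SE 0.24, edgeR adjusted p = 0.0661). In the dark it had 70.3, 75.4 and 82.1 CPM in bPAC cells, all above the 28.6, 15.6 and 15.4 CPM of parental cells (log2 difference 1.91, SE 0.26, edgeR adjusted p = 0.000125). The low light line difference was thus 2.67 lower than the dark one on the log2 scale (SE 0.35, edgeR adjusted p = 0.00296). In high light the gene was called lower in bPAC cells, at 16.1 CPM (n = 3) against 32.9 CPM (n = 2) in parental cells (log2 difference -1.04, SE 0.29, edgeR adjusted p = 0.0230). The low light minus dark difference of ENSCAFG00000006638 was called in each of the 13 fits that left out a low light or dark library. ENSCAFG00000016984 lost its call without parental dark replicate 3, bPAC dark replicate 2 or 3 or parental low light replicate 2 (adjusted p from 0.0602 to 0.0867). ENSCAFG00000018583 lost it without any of those, parental dark replicate 2 or parental low light replicate 3 (adjusted p from 0.0635 to 0.120). The count of 3 became 1 without parental dark replicate 3, bPAC dark replicate 2, bPAC dark replicate 3 or parental low light replicate 2, and 6 without parental dark replicate 1. With either pair of the bPAC low light libraries it was 6 (without replicates 1 and 4) and 28 (without replicates 2 and 3). The direction moved too: the low light minus dark difference was above 0 for 83.3% of the 6 and 10.7% of the 28, against 66.7% of the 3.

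**Figure D5:**
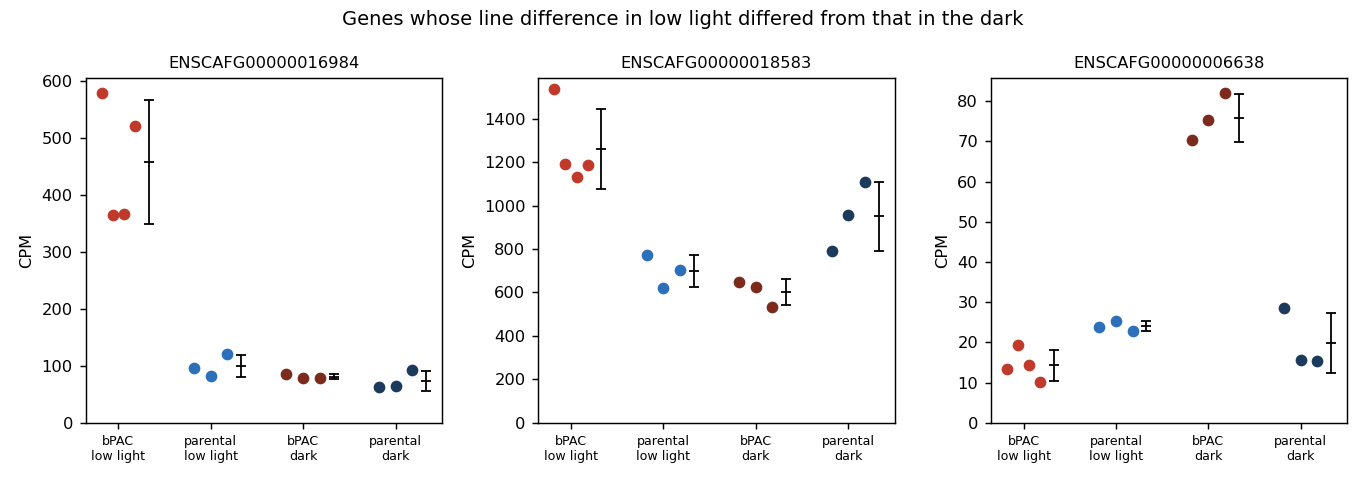
CPM per library (points), with mean and SD at the right of each group, of the 3 genes whose line difference in low light differed from that in the dark. In ENSCAFG00000016984 the bPAC low light libraries stand above the other 9, in ENSCAFG00000018583 the order of the lines turns, and in ENSCAFG00000006638 the bPAC dark libraries stand above the other 10.

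The rule for genes called in both conditions also named ENSCAFG00000017855 among the higher genes and ENSCAFG00000018999 among the lower ones. ENSCAFG00000017855 had 76 reads in the 4 bPAC low light libraries, at 1.43, 2.75, 7.61 and 4.87 CPM, and 0 reads in the 3 parental low light libraries. Against a floor of 3 reads over the parental group, its mean level was at least 18.7-fold higher in bPAC cells, a bound that takes the bPAC mean as exact. It is 1 of the 2 tested genes above with no parental low light reads, and it passed the filter only through bPAC libraries. Its low light call (edgeR adjusted p = 0.00238) therefore adds no support. In the dark it had 60 reads in bPAC and 1 read in parental cells, a ratio of 94.8 with a 95% counting interval of 16.4 to 3800 that covers counting error only. ENSCAFG00000018999 had 6.68, 5.49, 5.27 and 4.09 CPM in the bPAC low light libraries and 41.2, 54.0 and 35.9 CPM in the parental ones, an 8.16-fold lower level (log2 fold change -3.03, SE 0.22, edgeR adjusted p = 4.86e-08). Its dark levels were 5.32, 7.81 and 6.29 CPM in bPAC cells and 40.7, 35.1 and 36.4 CPM in parental cells, so in each condition the lowest parental library was several times the highest bPAC library.

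High light gave 1041 genes between the lines (12.2% of tested genes), 561 higher and 480 lower in bPAC cells. Leaving out 1 bPAC library, replicate 1 or 2, gave 571 or 544 genes, and leaving out parental replicate 1 or 2 gave 658 or 290. The parental group then held 1 library, which was assumed to vary like the other groups. Of the genes called in low light, 240 higher and 104 lower ones were called with the same sign in high light, and none with the opposite sign. These were 67.4% of the higher and 43.2% of the lower low light genes, and 42.8% of the higher and 21.7% of the lower high light genes. Called in the dark, in low light and in high light alike were 208 genes, 161 higher and 47 lower in bPAC cells. The 161 genes had median log2 line differences of 1.44 (dark), 1.43 (low light) and 1.79 (high light), and the 47 genes -1.22, -1.22 and -1.27 in the same order. Both lists were chosen for passing in every condition in these same libraries. Their medians therefore describe them and are no support for an equal line difference. Another 82 higher and 106 lower genes were called in low light and in neither of the other conditions, a count that rests on thresholds and not on a test of the difference.

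The low light line difference minus the high light one called 2 genes, 0.0234% of those tested (592 at an unadjusted p under 0.05), a test added after the data were seen. DESeq2 called 42. In both genes, named after their values were seen, the lines did not pass the test in low light and bPAC cells were lower in high light. ENSCAFG00000000406 stood at 177 ± 24.9 CPM in bPAC low light (SD, n = 4) and 224 ± 14.7 CPM in parental low light (SD, n = 3), and at 27.8 ± 1.89 CPM in bPAC (SD, n = 3) and 172 ± 31.0 CPM in parental high light (SD, n = 2). ENSCAFG00000016464 stood at 35.8 ± 5.30 CPM in bPAC low light and 38.1 ± 2.57 CPM in parental low light, and at 10.6 ± 2.20 CPM in bPAC and 44.1 ± 3.12 CPM in parental high light (edgeR adjusted p = 0.00455 for the difference in each gene). With only the groups compared, ENSCAFG00000016464 lost its call (edgeR adjusted p = 0.054) and ENSCAFG00000000406 kept it (edgeR adjusted p = 0.00205). Leaving out 1 library changed the count by more than 1.5 times in 3 cases, to 4 (bPAC low light replicate 4), 6 (bPAC high light replicate 3) and 8 (parental high light replicate 2, which leaves 1 library in that group with its spread taken from the other groups).

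The light responses of the lines are given for the genes called between the lines in low light; they share the low light libraries with that comparison, so they are no separate evidence. Of the 356 genes higher in bPAC cells, 106 were also higher in bPAC low light than in bPAC dark libraries and 18 lower, where 17.2% and 18.1% of all tested genes were called higher and lower. In parental cells, 24 of the 356 were higher and 12 lower in low light than in the dark, beside 6.76% and 4.68% of all tested genes. Their median log2 light response was 0.32 in bPAC and 0.11 in parental cells. Of the 241 genes lower in bPAC cells, 18 were higher and 73 lower in bPAC low light than in bPAC dark, and 22 were higher and 11 lower in parental low light than in parental dark. Their medians were -0.39 in bPAC and -0.000905 in parental cells.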

How the data were processed

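Per the labels' protocols, Lexogen kits were used for extraction (SPLIT) and for libraries read from 3' ends (QuantSeq 3' FWD), so a count does not scale with transcript length. The authors deposited whole-number read counts per Ensembl gene ID, 1 table per library and not normalised. The submitters' processing notes name the build CanFam3.1; for the aligner, the counter and whether counting used strand, the sources used here say nothing, so overlapping, antisense and near-identical genes are uncertain. The 5 rows of reads without a gene were left out of library sizes and tests.

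All 18 libraries entered 1 model of 6 groups with edgeR 4.0.16 in R 4.3.3: filterByExpr at its minimum count of 10, TMM scaling, robust glmQLFit and glmQLFTest, with Benjamini-Hochberg adjustment over 8530 genes at 0.05. Groups came from the source labels and carry no batch. SEs were derived from edgeR's F and the log2 fold change (fold change over root F), and a 95% interval uses edgeR's degrees of freedom; 9 of the 597 genes have a p that edgeR set otherwise, for which the interval is approximate. Log2 CPM used a prior count of 2. Within groups, chi-square per degree of freedom between low light libraries was 10.7 to 63.9 over 9 pairs, so none agreed within sampling noise. Alternatives were DESeq2 1.42.0 (size factors and test), limma-voom (limma 3.58.1), 2 other filters, the compared groups alone and leaving out libraries. The script was tested on simulated data.

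The rule named, per direction, the 2 largest folds in low light with at least 5 CPM and no overlap, 2 genes called in low light and dark, and the 2 smallest p-values for the difference of both among genes called for it and in low light. Lists needing symbols were not run. Members, lists and rules were chosen with earlier results of these data known.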

Additional observations from a re-analysis of the deposited data

Results flagged for a closer look

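ENSCAFG00000018583 stood at 1536 CPM in bPAC low light replicate 1, above the 1190 CPM of the next of the 4 libraries by 0.852 of the group's range. It was the 1 case among 18 sets of the 4 bPAC low light libraries examined (genes and library measures), where chance alone gives about 1 in 20. The same gene had a line difference that was 1.51 higher in low light than in the dark on the log2 scale. For ENSCAFG00000016984 that difference was 2.06 and for ENSCAFG00000006638 it was -2.67, each past the adjusted threshold of the test of the difference. Between low and high light the line difference differed by 2.29 for ENSCAFG00000000406 and by 1.96 for ENSCAFG00000016464.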

How the results depend on the processing

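No paired analysis was possible because the labels give no replicate numbers that groups share. Scaling by DESeq2's size factors, limma-voom and a filter at a mean of 5 CPM left every count within 1.5 times. With only the groups compared, 356 genes were called in low light, 677 in high light, 180 in low light and dark with the same sign, and 1 between low and high light line differences. DESeq2 called 13 genes for the difference from the dark and 42 for that from high light. Without a filter these were 76 and 70, with 864 genes in the dark and 7 of opposite sign. The difference from the dark was above 0 for 17.1% of the 76, against 66.7% of the 3 in the report. Of the 865 low light calls without a filter, 49.2% were higher, against 59.6% in the report. Without bPAC low light replicates 1 and 4 the low light count was 310 and the differences from dark and high light gave 6 and 6 genes; without replicates 2 and 3 they were 1069, 28 and 4, with 2 of opposite sign. The causes were not tested.

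Leaving out 1 library gave 298 to 569 genes in low light, 224 to 720 in the dark, 290 to 1197 in high light (the lowest with 1 parental library), 167 to 294 shared with the same sign and 0 to 2 with opposite sign, 1 to 6 for the difference from the dark and 2 to 8 for that from high light. The median low light difference lay between -0.0353 and 0.0216. Of 268 values of named genes under alternatives, 251 kept direction and side of the threshold, 17 no longer passed and 0 reversed. Low counts limit genes under 4.90 CPM, whose median SE was 0.506.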
